A study of Populus ussuriensis with 20 samples.

Results

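The most abundant transcripts of the poplar stem base are 100 of the 39538 gene models counted in 20 RNA sequencing libraries, or 0.253% of the models. They were chosen by a single value, the mean over all 20 libraries of the unscaled CPM (the reads of a gene per 1000000 counted in its library). The 2 neighbouring chromosome 13 genes Potri.013G100700.v3.0 and Potri.013G101000.v3.0 were left out by the same rule. The libraries came from the lowest 0.5 cm of in vitro cuttings of Populus ussuriensis on half-strength Murashige and Skoog medium, sampled 6, 12, 24, 48 and 96 h after cutting. Wild-type plants (WT) were compared with plants carrying PuHox52 behind the 35S promoter (OE), which is active in most plant tissues. Each of the 10 groups had 2 biological replicates, each a pool of 40 cuttings. The plants' age is 2 weeks in the series text and 4 weeks in the growth protocol. The number of transgenic lines is not stated, no group was uncut, and a time since cutting is also a time of day under 16 h of light and 8 h of dark.

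In a growing stem a small set of strongly transcribed or long-lived messenger RNAs takes a large part of all reads. Because reads are a share of a fixed total, a rise in such transcripts lowers the shares of the others, and a long transcript collects more reads than a short one at the same number of molecules. After cutting, the stem base heals the wound and then forms root primordia by cell division, a sequence known from cuttings of many plants. PuHox52 is a homeodomain-leucine zipper protein, a class of transcription factors found in plants. The files used here pair no gene ID with a name or product, so the roles of single members, classes of function, the tissue's marker genes and PuHox52 itself could not be looked up, and members are given by ID, position and level. In whole stem pieces, fewer cells of a type and less RNA per cell cannot be told apart.

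The unscaled CPM that chose the members ran from 7184 for the first, Potri.006G085200.v3.0, to 602 for the last, Potri.002G034400.v3.0. The first 5 genes outside had 593 to 599, against 602 to 624 for the last 5 inside, so the values run on without a gap at the edge of the set. Of the 100, 45 had a mean over 1000 and 12 a mean over 2000. All 100 passed the filter on low counts, and the lowest count of any member in any library was 204. Library totals ranged from 10399262 to 27472303 counts.

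Most members ranked high in both genotypes. Ranked on the WT libraries alone, 97 of the members stayed among the first 100, on the OE libraries alone 96 did, and 93 did on both. The mean that chose the set holds the libraries of both genotypes, so high counts here are in part built in. The widest gap was that of Potri.014G103000.v3.0 (chromosome 14, 8085842 to 8087890), ranked 569 in WT and 36 in OE, so its OE libraries made it a member. Single libraries, which are noisier than such means, were also ranked. Members filled 62 to 65 of the first 100 places of a library at 6 h, 77 to 90 at 12 h, 84 to 89 at 24 h, 82 to 84 at 48 h and 73 to 77 at 96 h. Only 32 members were among the first 100 in every one of the 20 libraries.

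CPM favours long transcripts, so the CPM ranks that chose the set are ranks by reads, not by molecules. The authors' FPKM is per kilobase and is the scale on which levels of different genes are compared. By mean FPKM 57 of the members stayed among the first 100 and 22 ranked past 200, the last of them Potri.015G017500.v3.0 at rank 765 with the longest model of the set (7994 bases). Members were nevertheless of ordinary length, with a median of 1894 bases against 1836 over the 26391 genes tested. Per kilobase, the first place changed hands over time. Potri.014G161300.v3.0 held the highest FPKM of the set in both WT libraries at 6 h (3056 and 3362) and in 1 OE library (2637), with Potri.010G072200.v3.0 first in the other (2719). Potri.006G085200.v3.0 was first in all 8 libraries at 24 and 48 h, with 6790.4 to 11294 FPKM. At 96 h Potri.009G030800.v3.0 led in 3 of 4 libraries and Potri.010G012100.v3.0 in the other, WT replicate 2, with 20096 FPKM for the former in WT replicate 1.

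The share of all counts that the members took rose with time in both genotypes. In WT it was 9.7 and 9.8% of the library (6 h), 11.6 and 12.5% (12 h), 12.9 and 13.6% (24 h), 13.3 and 13.2% (48 h) and finally 14 and 13.9% (96 h). In OE it was 9.59 and 9.61%, 11.9 and 12.2%, 12.3 and 12.4%, 13.1 and 13.2% and 13.8 and 13.4% at the same times. Every library at 12 h or later lay above every library at 6 h. The 10 highest members carried most of the gain, but the mean that picked these 10 includes the 96 h libraries. They went from 1.92 ± 0.00443% (SD, n = 2) to 4.57 ± 0.176% in WT and from 1.74 ± 0.0974% to 4.11 ± 0.2% in OE. The other 90 together went from 7.83 ± 0.0686% to 9.46 ± 0.15% at 24 h and 9.39 ± 0.0633% at 96 h in WT. A set chosen on the mean over all times fits a single time less well than that time's own first 100 genes. Those, again without the 2 chromosome 13 genes, took 11.2 ± 0.265% of the counts in WT at 6 h and 14.8 ± 0.0584% at 96 h. The 2 genes left out took a further 0.0876 ± 0.013% and 3.58 ± 0.103% at these times. The share thus rose by that choice of genes as well.

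Between the genotypes the share differed little. Averaged over the times it was 12.1% in OE and 12.5% in WT, a difference of -0.308 percentage points beside a pooled SD within groups of 0.272. The difference by time was -0.149, 0.00376, -0.933, -0.0852 and -0.378 points from 6 to 96 h. At 24 h both OE libraries lay below both WT libraries by more than that SD. At 6, 48 and 96 h both lay below by less than that SD at the nearest, and at 12 h the genotypes overlapped. No test is given for a score over members chosen in this way.

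**Figure D1:**
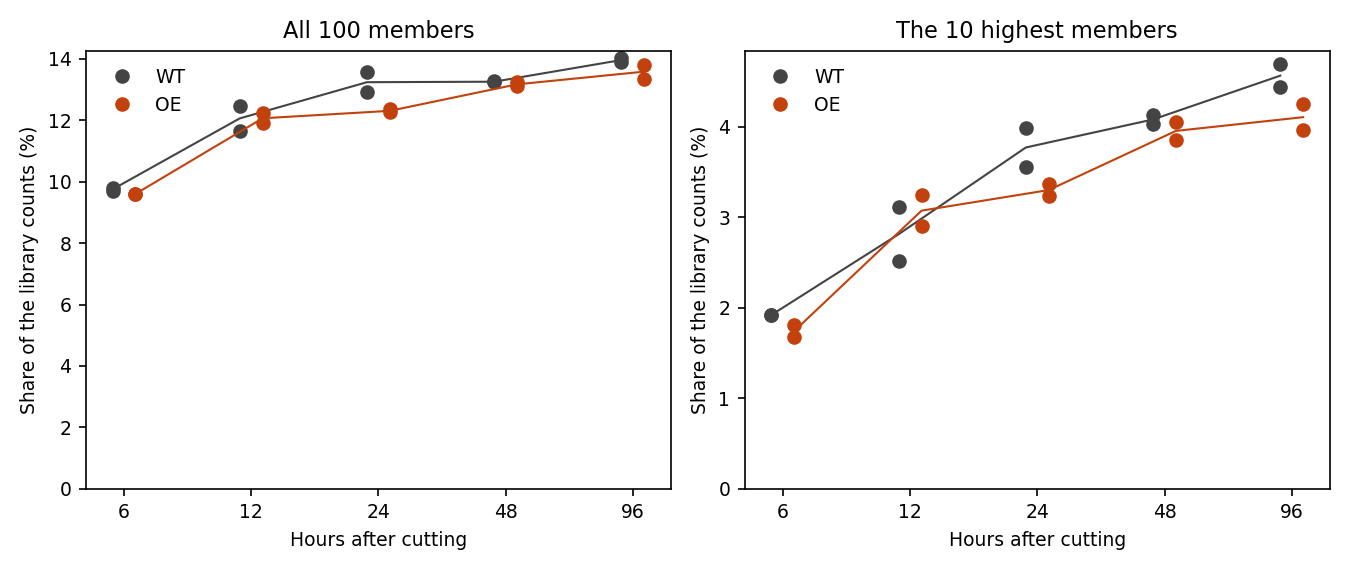
Share of each library's counts, in percent, taken by all 100 members (left) and by the 10 with the highest mean (right), against hours after cutting. Points are single libraries, lines join the means of 2 libraries, WT is grey and OE orange, and the share of the 100 rises from 9.7% and 9.8% in WT at 6 h to 14% and 13.9% at 96 h.

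Levels of single members are CPM scaled by edgeR's trimmed mean of M values, or TMM. A call means an adjusted p below 0.05 in edgeR's quasi-likelihood fit, the adjustment being that of Benjamini and Hochberg over all 26391 genes tested. The rule used the levels at all times, so a gene that is high only in a group compared can be a member through that group. Chosen instead on the 12 libraries of the 3 times not compared, a rule added after the data were seen, the set kept 91 of the members for 96 against 6 h, with 45 called higher and 36 lower in WT and 45 and 36 in OE. By 96 h most members had left their level of 6 h. In WT 84 of the 100 were called (46 higher and 38 lower), where 60.4% of all genes tested were, 30.2% higher and 30.2% lower. In OE 86 were called (47 higher and 39 lower), against 60% of all genes, 31.1% and 28.9% by direction. Changes of at least 2-fold were called for 31 members upward and 20 downward in WT and for 29 and 19 in OE, beside 30.7% and 28.7% of all genes in either direction. The median log2 fold change was 0.14 in WT and 0.29 in OE, beside 0.03 and 0.05 over all genes.

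The widest gap between 6 and 96 h was that of Potri.001G060900.v3.0 (chromosome 1, 4680664 to 4683319). WT CPM was 41.8 and 43.8 (6 h), 54.3 and 241 (12 h), 328 and 817 (24 h), 1159 and 945 (48 h), then 1789 and 1703 (96 h). OE CPM was 31.5 and 16.8 (6 h), 177 and 303 (12 h), 513 and 405 (24 h), 699 and 828 (48 h), then 1657 and 1224 (96 h). In both genotypes the 6 h libraries lay below all later ones, and WT 12 h replicate 1 stayed close to them. The fitted level at 96 h was 40.8 times that at 6 h in WT and 58.9 times in OE (log2 fold changes 5.35 and 5.88). Its 96 h libraries made it a member, since over the other times it ranked 220, so these values are a description and no test is given. In unscaled CPM its highest library held 1758 and its lowest 16.6, the widest range of any member.

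Potri.010G012100.v3.0 was higher at 96 than at 6 h in both genotypes as well. WT CPM was 214 and 250.2 (6 h), 347 and 746 (12 h), 897 and 1369.7 (24 h), 1898 and 2157 (48 h), then 7449 and 7097 (96 h). OE CPM was 275 and 259 (6 h), 564 and 624 (12 h), 1072 and 948 (24 h), 1808 and 1836 (48 h), then 5785 and 5703 (96 h). In both genotypes the highest libraries were those of 96 h, all 4 of them above 2157, the highest value at 48 h. At 48 h the rise from 6 h was 8.73-fold in WT and 6.83-fold in OE. At 96 h it was 31.3-fold in WT (SE of the log2 change 0.293) and 21.5-fold in OE (SE 0.285), with adjusted p of 3.7e-09 and 1.16e-08 by edgeR. The locus of this model spans 298193 bases (chromosome 10, 1614683 to 1912875) for a length of 734 and overlaps 31 other models. One of these is the member Potri.010G013400.v3.0 on the opposite strand, which rose 3.76-fold in WT and 3.18-fold in OE. The strand setting of the counting is not given in the sources used here, so reads of such models may not have been told apart.

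Potri.006G085200.v3.0 (chromosome 6, 6441806 to 6446677), first of the set by reads, climbed through the whole series. WT CPM was 2027 and 1763 (6 h), 3036 and 4603 (12 h), 6435 and 8592 (24 h), 9862 and 10949 (48 h), then 12786 and 11892 (96 h). OE CPM was 1445 and 2050.4 (6 h), 4616 and 5858 (12 h), 7259.8 and 7912 (24 h), 9450.5 and 9040.3 (48 h), then 12168 and 10946 (96 h). The groups of 6 and 12 h did not overlap with those of 48 and 96 h in either genotype. It rose 6.51-fold in WT and 6.61-fold in OE from 6 to 96 h (log2 fold changes 2.70 and 2.73, SE 0.217 and 0.218, adjusted p 4.45e-08 and 5.38e-08 by edgeR).

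The deepest decrease was that of Potri.004G202500.v3.0 (chromosome 4, 21312761 to 21315307). WT CPM was 1525 and 1689 (6 h), 850.5 and 759.6 (12 h), 372 and 374 (24 h), 216 and 225 (48 h), then 169 and 147 (96 h). OE CPM was 1727 and 1539.5 (6 h), 910.4 and 608 (12 h), 357 and 338 (24 h), 294 and 258 (48 h), then 179 and 158 (96 h). In both genotypes each time's libraries lay below those of the time before. Its fitted level was 10.2-fold lower at 96 than at 6 h in WT and 9.7-fold lower in OE (log2 fold changes -3.35 and -3.28). It was a member through its 6 h libraries, ranking 231 over the other times, and no test is given for it either. Potri.014G161300.v3.0 (chromosome 14, 12699622 to 12704140), highest per kilobase in 3 of the 4 libraries at 6 h, stayed high until 12 h and then fell. WT CPM was 5089.7 and 5618 (6 h), 4266 and 4984 (12 h), 3400.4 and 3201 (24 h), 1974 and 1795 (48 h), then 1094 and 958 (96 h). OE CPM was 4411 and 3844 (6 h), 4790.2 and 3902 (12 h), 2728 and 2309.7 (24 h), 2159.8 and 1685 (48 h), then 902 and 782 (96 h). In both genotypes the libraries of 24, 48 and 96 h lay below those of 6 and 12 h. The fall from 6 to 96 h was 5.22-fold in WT and 4.9-fold in OE (log2 fold changes -2.38 and -2.29, SE 0.162 and 0.161, adjusted p 1.04e-08 and 1.8e-08 by edgeR).

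**Figure D2:**
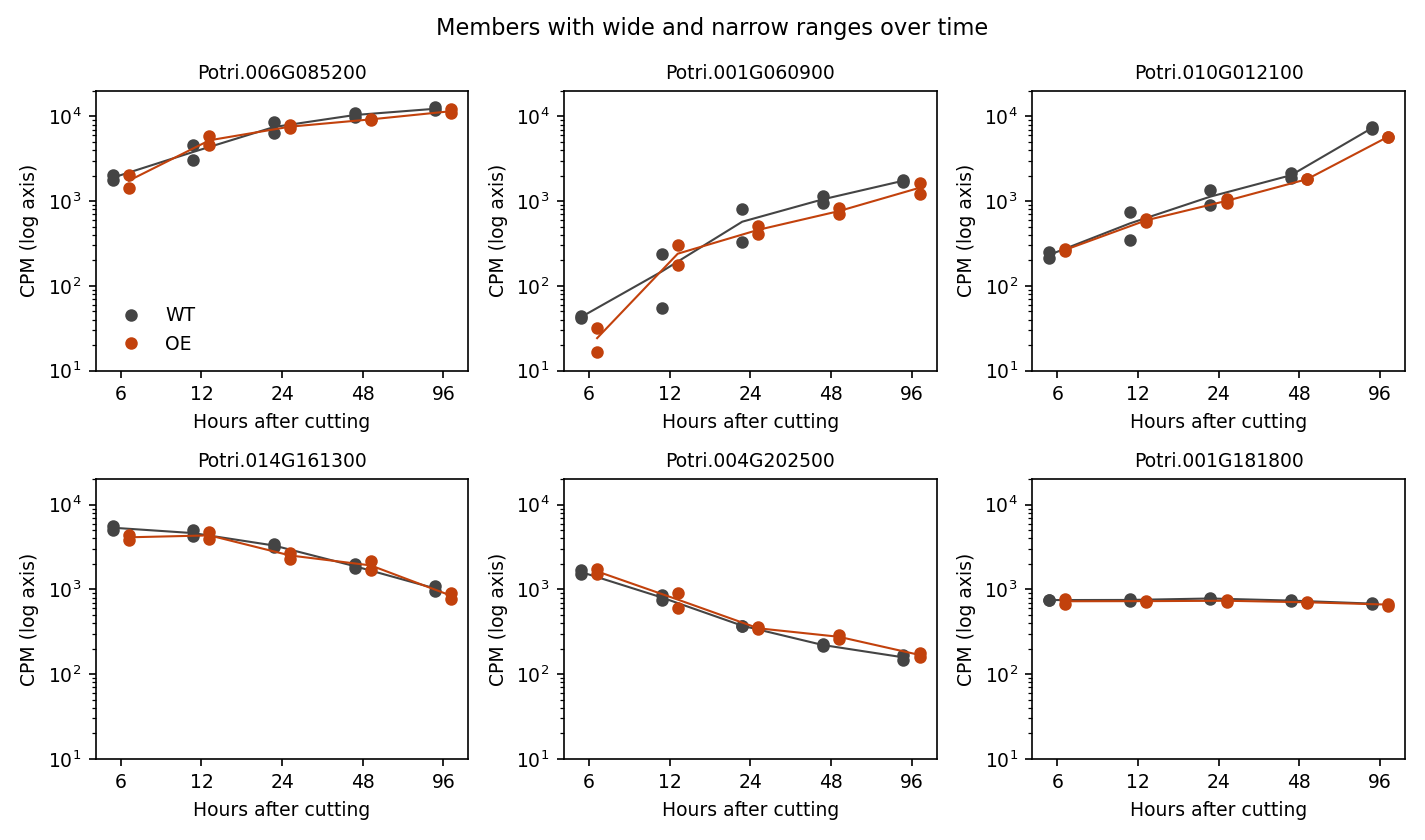
CPM (TMM-scaled, log axis, the same range in every panel) of 6 members against hours after cutting. Points are single libraries and lines join the means of 2 libraries, WT grey and OE orange. The upper row climbs in both genotypes, the first panels of the lower row fall, and the last panel stays level.

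At 12, 24 and 48 h more members were called higher than lower against 6 h, and at 96 h the directions were closer to equal. At 12 h 52 members were called in WT (39 higher and 13 lower, beside 36% of all genes, 17.6% and 18.4%) and 55 in OE (45 higher and 10 lower, beside 36.8% of all genes, 17.8% and 19%). At 24 h the counts were 74 in WT (53 higher and 21 lower, beside 49.4% of all genes, 24.1% and 25.3%) and 68 in OE (49 higher and 19 lower, beside 45% of all genes, 21.8% and 23.1%). At 48 h they were 80 (52 higher and 28 lower, beside 55.8% of all genes, 28.5% and 27.3%) and 79 (51 higher and 28 lower, beside 55.1% of all genes, 28% and 27.1%). Over all genes both directions were about as frequent in each of these comparisons. The mean that chose the members is mostly of times after 6 h, so it favours genes lower at 6 h than later. Chosen on the times not compared, the set had 48 higher and 9 lower in WT at 12 h, and 55 and 6 in OE. At 24 h it had 61 and 15 in WT and 57 and 13 in OE, and at 48 h 57 and 22 and 57 and 21. That choice also rests on later times, so it does not remove this preference. The median log2 fold change of the members was 0.45 in WT and 0.28 in OE at 24 h, beside -0.01 in both over all genes. These comparisons share the 6 h libraries of their genotype.

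Between 24 and 96 h, which are the same hour of day if all cuttings were made at one hour, more members were lower than higher. In WT 60 were called (19 higher and 41 lower), against 30.3% of all genes, 14.8% higher and 15.5% lower. In OE 59 were called (20 higher and 39 lower), against 26.5% of all genes, 12.7% and 13.8%. The OE count was 36 without OE 24 h replicate 1. Potri.010G012100.v3.0 rose 6.42-fold in WT (log2 fold change 2.68, SE 0.263, adjusted p 8.25e-06 by edgeR) and 5.69-fold in OE (2.51, SE 0.261, adjusted p 2.38e-05). Potri.014G161300.v3.0 fell 3.22-fold in WT (-1.69, SE 0.158, adjusted p 5.83e-06 by edgeR) and 2.99-fold in OE (-1.58, SE 0.157, adjusted p 1.56e-05). The members' median change was -0.24 in WT and -0.20 in OE on the log2 scale, beside 0.02 in both over all genes. The mean that chose the members is mostly of times before 96 h, so it favours genes lower at 96 h than before. Chosen on the times not compared, the set kept 87 of the members. Of the set so chosen, 13 were called higher and 50 lower in WT, and 13 and 49 in OE. That choice rests on 6, 12 and 48 h, all before 96 h, so it does not remove this preference.

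Peak times were spread over the whole series. In WT 24 members were highest at 6 h, 21 at 12 h, 18 at 24 h, 13 at 48 h and 24 at 96 h, and in OE 25, 15, 16, 15 and 29. Over all genes tested the shares highest at these times in WT were 34.2, 12.2, 9.11, 15.3 and 29.3%. In OE these shares were 35.9, 9.58, 9.44, 17 and 28.1%. The lowest level fell at 6 h for 49 members in WT and 50 in OE, and at 96 h for 38 and 41. Over all genes these low points were at 6 h for 34.6 and 37.3% and at 96 h for 26.6 and 25%. The peak was at the same time in both genotypes for 72 members, against 61.9% of all genes, and the low point for 86, against 58.7%. No test was made of these counts.

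**Figure D3:**
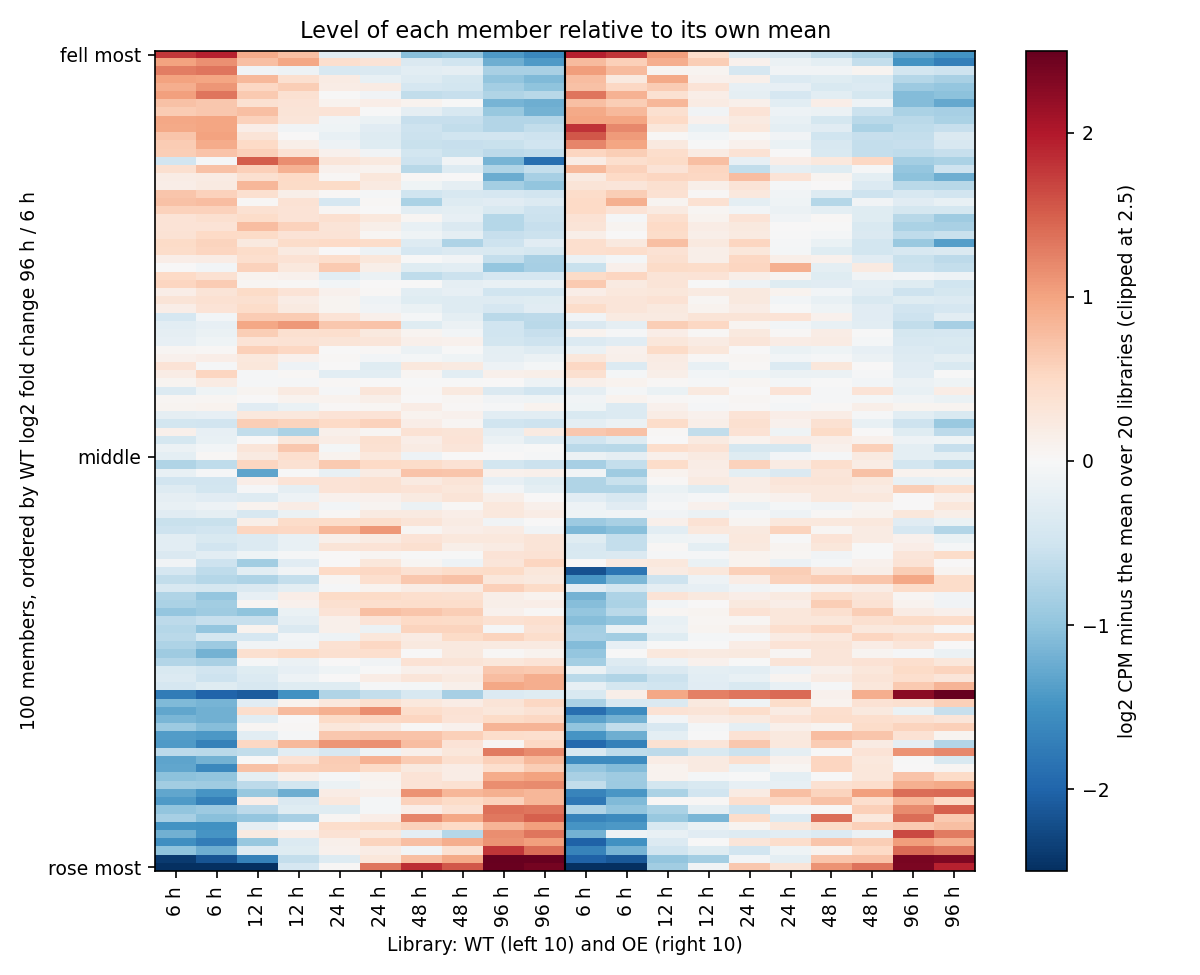
Each row is 1 of the 100 members and each column 1 library, WT on the left and OE on the right of the line, in order of hours after cutting. Colour is log2 CPM minus the member's own mean over 20 libraries, red above and blue below, clipped at 2.5, and rows are ordered by the WT change from 6 to 96 h, so that red moves from the 6 h columns at the top to the 96 h columns at the bottom in both genotypes.

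WT and OE, which share no library, followed nearly the same courses. From 6 to 96 h, 44 members were called higher and 36 lower in both, and 0 in opposite directions. That is 95.2% of the members called in WT and 93% of those called in OE. Over all genes tested, 80.2% of the WT calls and 80.7% of the OE calls were made in the same direction in the other genotype, and 48.4% of genes were called so. From 6 to 12 h the shared calls were fewer, with 32 higher and 8 lower in both, where 23.2% of all genes were shared. That was 76.9% of the WT and 72.7% of the OE calls, against 64.6% and 63.1% of the calls over all genes. From 6 to 24 h, 47 and 18 were shared, beside 35.5% of all genes, and from 6 to 48 h 49 and 25, beside 46.3%. From 24 to 96 h, 18 and 35 were shared, beside 18.1% of all genes. They were 88.3% of the WT and 89.8% of the OE calls, against 59.6% and 68.1% of the calls over all genes. In this comparison 1 member was called in opposite directions. That member, Potri.006G126800.v3.0, changed by -0.50 (SE 0.107, adjusted p 0.00251 by edgeR) on the log2 scale in WT and by 0.30 (SE 0.107, adjusted p 0.0474) in OE. Its OE call was lost without any of 17 libraries, all but WT 12 h replicate 2 and OE 12 h replicates 1 and 2 (adjusted p 0.0542 to 0.389).

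**Figure D4:**
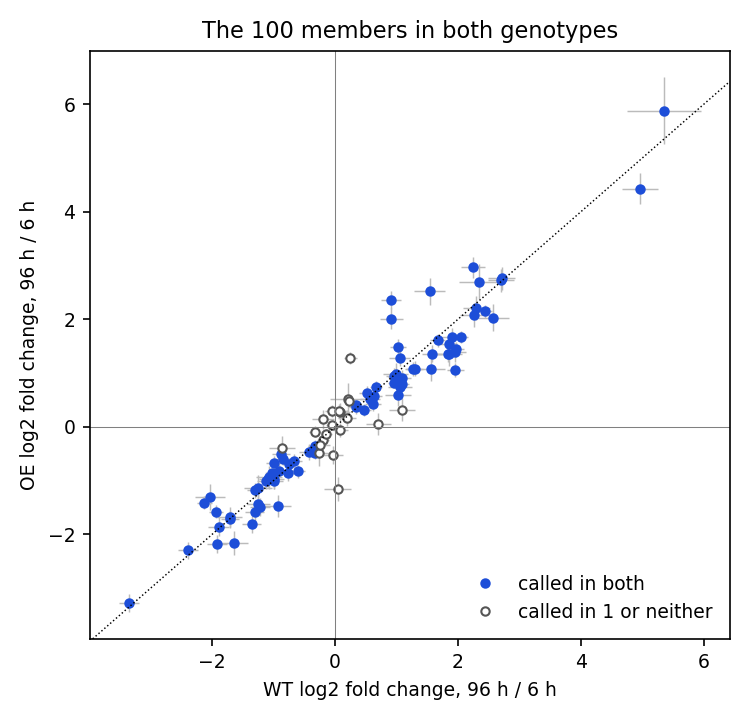
Log2 fold change from 6 to 96 h of the 100 members in OE (vertical) against WT (horizontal). Bars are standard errors, filled points were called in both genotypes, open points in 1 or neither, and the dotted line marks equal change. The points follow that line from -3.35 to 5.35 in WT and from -3.28 to 5.88 in OE.

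A few members hardly moved. Potri.001G181800.v3.0 (chromosome 1, 15860891 to 15862800) had the narrowest range of group means, 1.18-fold, and its 20 libraries lay between 645 and 797 CPM with a median of 729.8. Its lowest libraries were those of 96 h and OE 6 h replicate 1. Potri.001G418500.v3.0 (chromosome 1, 44336519 to 44338564) ranged 1.21-fold, between 1615 and 2057 CPM. In all, 8 members ranged by less than 1.5-fold over the 10 groups, 75 by at least 2-fold and 27 by at least 4-fold. Of the 100, 2 were called in none of the 10 comparisons between times, Potri.001G181800.v3.0 and Potri.004G106800.v3.0, and the other 98 in at least 1, as were 84.3% of all genes tested. The second of these was not steady between replicates, with 1351 and 739 CPM in OE at 6 h. The range of group means had a median of 1.43 on the log2 scale over the members and 1.1 over all genes tested. Its upper quartile was 2.04 over the members and 1.82 over all genes. A range of at least 2-fold was thus common to most genes.

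Replicates of a group differed by a median of 0.0771 to 0.215 on the log2 scale per member, least in WT at 96 h and most in OE at 12 h. The largest difference of a single member, 2.15, was that of Potri.001G060900.v3.0 between the WT libraries at 12 h. The coefficient of variation within groups had a median of 7.22% over the members and 8.88% over all genes tested. The biological coefficient of variation estimated by edgeR was 0.109 and 0.109 in that order.

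OE differed from WT in few of the members. Averaged over the times, 7 of the 100 were called, 2 higher and 5 lower in OE, where 1.16% of all genes tested were, 0.663% higher and 0.5% lower. One member, Potri.014G103000.v3.0, differed by at least 2-fold, beside 0.148% of all genes, but its OE libraries made it a member. The counts that include it are therefore in part a product of the choice of members. The sign was negative for 66 of the 100 and for 45.8% of all genes, with a median of -0.04 against 0.01 on the log2 scale. DESeq2 called 14 members (2 higher and 12 lower) and an additive model of genotype and time 4 (2 and 2). Shares over all genes, here and below, are those of the main edgeR fit. None is given for the other methods, so their counts cannot be set beside these shares. In the 7 comparisons between genotypes together, 11 members were called at least once and 89 never, beside 4.04% of all genes called at least once.

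Potri.014G103000.v3.0 is a member through its OE libraries, so its genotype difference is in part what chose it. Its values are given as a description. The calls of it that are counted above and below are no independent evidence. WT CPM was 132 and 111 (6 h), 104 and 155 (12 h), 264 and 293 (24 h), 334 and 249.5 (48 h), then 348 and 360.5 (96 h). OE CPM was 338 and 492 (6 h), 862 and 1062 (12 h), 1121 and 1181 (24 h), 477 and 828 (48 h), then 2129 and 2625 (96 h). Every OE library lay above both WT libraries of its time, and the levels in OE dipped at 48 h. The difference was 3.41-fold at 6 h, 7.43-fold at 12 h, 4.13-fold at 24 h, 2.24-fold at 48 h and 6.71-fold at 96 h. The log2 fold changes were 1.77, 2.89, 2.05, 1.16 and 2.75. Averaged over the times OE was 4.36-fold higher (2.12 on the log2 scale).

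The other member higher in OE on average was Potri.009G116400.v3.0 (chromosome 9, 9834713 to 9836027), which was called lower at 48 than at 6 h in both genotypes. WT CPM was 1794 and 1643 (6 h), 1352 and 1369 (12 h), 1054 and 1145 (24 h), 821 and 876 (48 h), then 954 and 951 (96 h). OE CPM was 1764 and 1840.1 (6 h), 1597 and 1611 (12 h), 1409 and 1336 (24 h), 1035 and 1196 (48 h), then 1210.2 and 1161 (96 h). From 12 h on both OE libraries lay above both WT libraries, while at 6 h they overlapped. The average difference was small, 1.2-fold (log2 fold change 0.27, SE 0.0449, adjusted p 0.00897 by edgeR's quasi-likelihood test), and no single time was called.

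Of the 5 members lower in OE on average, 4 had their highest mean at 24 h in WT. For 1 of these, Potri.001G102400.v3.0, the WT libraries of 24 and 96 h overlapped (log2 fold change from 24 to 96 h -0.05, SE 0.168). Potri.002G070100.v3.0 (chromosome 2, 4816840 to 4817893) had the largest average decrease. WT CPM was 428 and 438 (6 h), 895 and 882 (12 h), 1085 and 1293 (24 h), 636 and 691 (48 h), then 703 and 579 (96 h). OE CPM was 280.3 and 295 (6 h), 509 and 732 (12 h), 728 and 898 (24 h), 630.3 and 706 (48 h), then 459.6 and 369 (96 h). The genotypes lay apart at 6, 12, 24 and 96 h and overlapped at 48 h. On average it was 1.37-fold lower (log2 fold change -0.46, SE 0.0735, adjusted p 0.00724 by edgeR). Potri.013G041600.v3.0 (chromosome 13, 2927792 to 2945794) showed the same order. WT CPM was 509.5 and 546 (6 h), 1708 and 2171 (12 h), 2331 and 2829 (24 h), 1713 and 1620.4 (48 h), then 1533 and 1623 (96 h). OE CPM was 342 and 423 (6 h), 1621 and 1583 (12 h), 1717 and 1460.0 (24 h), 1688 and 1503 (48 h), then 1122 and 841 (96 h). The genotypes again overlapped at 48 h and at no other time. It was 1.35-fold lower on average (-0.44, SE 0.071, adjusted p 0.00724 by edgeR). Potri.010G142800.v3.0, Potri.001G102400.v3.0 and Potri.011G025400.v3.0 had log2 fold changes of -0.43, -0.36 and -0.27 (SE 0.0952, 0.0753 and 0.0498, adjusted p 0.0396, 0.0307 and 0.0136 by edgeR), and their calls were not made by the additive model. The call of the first was lost without any of 14 libraries, all but WT 12 h replicate 1, OE 24 h replicate 1, WT 48 h replicate 2, OE 48 h replicate 1, WT 96 h replicate 1 and OE 96 h replicate 1 (adjusted p 0.0525 to 0.103). That of the second was lost without any of 11 libraries, all but OE 6 h replicate 1, WT 12 h replicate 1, OE 12 h replicate 1, WT 24 h replicate 1, OE 24 h replicate 1, WT 48 h replicate 2, OE 48 h replicate 1, WT 96 h replicate 1 and OE 96 h replicate 1 (adjusted p 0.053 to 0.0827).

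**Figure D5:**
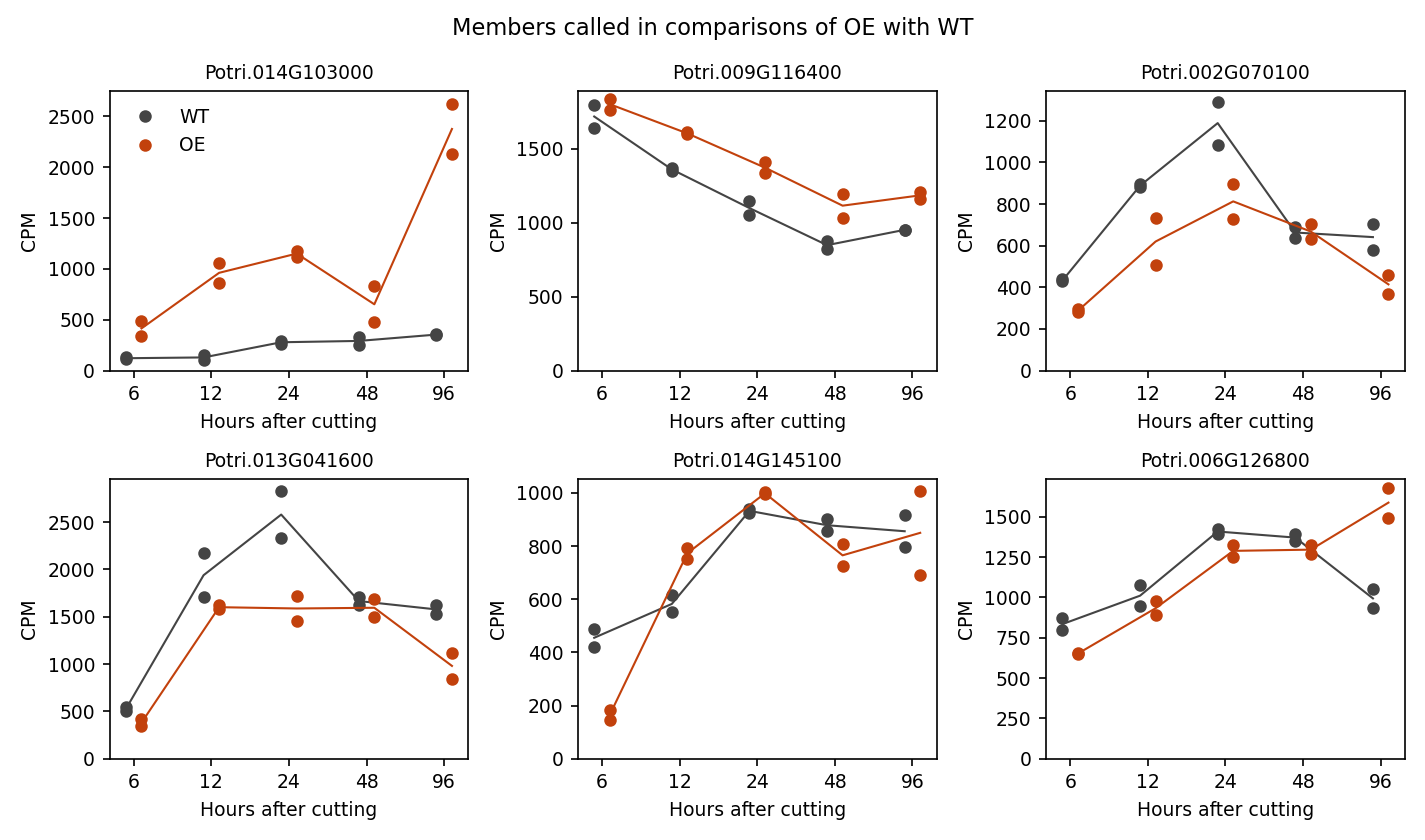
CPM (TMM-scaled, linear axis from 0) of 6 members called in comparisons between genotypes, against hours after cutting. Points are single libraries and lines join the means of 2 libraries, WT grey and OE orange. Potri.014G103000 lies higher in OE at every time, Potri.002G070100 and Potri.013G041600 lie lower in OE except at 48 h, and the last panels show members whose order changes with time.

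At single times the calls were fewer still, and wherever any were made they included Potri.014G103000.v3.0, a member through its OE libraries. At 6 h 2 members were called (1.09% of all genes, 0.409% and 0.678%), Potri.014G103000.v3.0 upward and Potri.014G145100.v3.0 downward. The latter (chromosome 14, 11073134 to 11075291) stood 2.76-fold below WT in OE (log2 difference -1.46, SE 0.159, adjusted p 0.000789 by edgeR). Leaving out WT 6 h replicate 2 ended the call of Potri.014G103000.v3.0, and DESeq2 called 10 members. At 12 h only Potri.014G103000.v3.0 was called (0.398% of all genes, 0.205% and 0.193%), and the count was 4 without WT 12 h replicate 2. With the 4 libraries of 12 h alone no member was called, and DESeq2 called 5.

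At 24 h 3 members were called, 1 higher and 2 lower (0.739% of all genes, 0.307% and 0.432%), or 1 and 1 with library sizes scaled by summed counts only. DESeq2 called 8 and the fit without a filter 5. Potri.011G025400.v3.0 (chromosome 11, 2105410 to 2108297) had 2007 and 2056 CPM in the WT and 1310.5 and 1199 in the OE libraries of 24 h, and was 1.62-fold lower (-0.70, SE 0.112, adjusted p 0.0103 by edgeR). Its call was lost without WT 24 h replicate 1 or 2 or OE 24 h replicate 2 (adjusted p 0.0615 to 0.0892). Potri.017G114600.v3.0 was 1.51-fold lower (-0.59, SE 0.13, adjusted p 0.0475). Its call was lost without any of 13 libraries, all but WT 6 h replicates 1 and 2, OE 6 h replicate 1, WT 12 h replicates 1 and 2 and OE 48 h replicates 1 and 2 (adjusted p 0.0501 to 0.295). The count of 3 became 1 without WT 24 h replicate 1, WT 24 h replicate 2 or OE 24 h replicate 2.

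At 48 h edgeR called 0 members (0.0455% of all genes, 0.0114% and 0.0341%), 3 had an unadjusted p under 0.05, and DESeq2 called 2. At 96 h 4 were called, 2 higher and 2 lower (1.53% of all genes, 1.11% and 0.417%). Besides Potri.014G103000.v3.0, Potri.006G126800.v3.0 was 1.6-fold higher (0.68, SE 0.107, adjusted p 0.00525 by edgeR). Potri.001G102400.v3.0 (chromosome 1, 8187840 to 8188878) had 6022 and 7001 CPM in the WT and 3983 and 3062 in the OE libraries of 96 h, and was 1.85-fold lower (-0.89, SE 0.169, adjusted p 0.0168 by edgeR). Potri.013G041600.v3.0 was 1.61-fold lower (-0.69, SE 0.159, adjusted p 0.0418). Calls ended by leaving out WT 96 h replicate 2 for the last 3 genes (adjusted p 0.134, 0.217 and 0.307), without OE 96 h replicate 2 for the lower genes (0.266 and 0.437), and without OE 96 h replicate 1 for Potri.006G126800.v3.0 (0.0553). The call of Potri.013G041600.v3.0 was also lost without WT 96 h replicate 1 (0.101) or any single WT library of 6 or 48 h (0.056 to 0.0589). The count of 4 became 1 when WT 96 h replicate 2 was left out, 2 when OE 96 h replicate 2 was, and 9 with the 4 libraries of 96 h alone or without the filter, while DESeq2 called 10.

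The difference between OE and WT changed over the times for 5 members (1.65% of all genes). Potri.014G145100.v3.0 was called lower in OE at 6 h and at no other time. WT CPM was 489 and 421 (6 h), 551 and 615 (12 h), 925 and 939.8 (24 h), 855 and 902 (48 h), then 915 and 796 (96 h). OE CPM was 145 and 185 (6 h), 752 and 794 (12 h), 994 and 1003 (24 h), 807 and 724 (48 h), then 1008 and 692 (96 h). Both OE libraries lay above both WT libraries at 12 and 24 h and below them at 6 and 48 h, and at 96 h the genotypes overlapped (adjusted p of the change 0.0061 by edgeR). Potri.006G126800.v3.0 (chromosome 6, 10249101 to 10252663) parted at the end of the series. WT CPM was 874 and 796 (6 h), 1075 and 948 (12 h), 1392 and 1425 (24 h), 1394 and 1348 (48 h), then 1055 and 933 (96 h). OE CPM was 654 and 651 (6 h), 976 and 891 (12 h), 1254 and 1324 (24 h), 1322 and 1271 (48 h), then 1681 and 1495 (96 h). Both OE libraries lay below both WT libraries at 6, 24 and 48 h and above them at 96 h, and at 12 h the genotypes overlapped (adjusted p of the change 0.0147 by edgeR). The call was lost when WT 96 h replicate 2 or OE 96 h replicate 1 was left out (adjusted p 0.0618 to 0.0891).

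Potri.017G114600.v3.0 (chromosome 17, 13012818 to 13241756) changed order more than once. WT CPM was 349.7 and 280.3 (6 h), 1429 and 1299 (12 h), 1318 and 1193 (24 h), 1011 and 971 (48 h), then 1142 and 1309.7 (96 h). OE CPM was 436 and 405 (6 h), 911 and 1000.5 (12 h), 776 and 888 (24 h), 1253 and 1039 (48 h), then 869 and 889 (96 h). OE was higher at 6 and 48 h and lower at 12, 24 and 96 h, with no overlap at any time (adjusted p 0.0161 by edgeR). Its locus spans 228939 bases and overlaps 32 other models that together held 44% as many counts, so part of its value may belong to them. Potri.016G015500.v3.0 (chromosome 16, 840589 to 842831) had its peak at 12 h in both genotypes. WT CPM was 659 and 902 (6 h), 2606 and 2069 (12 h), 1134 and 1095 (24 h), 644 and 859.6 (48 h), then 409.8 and 247 (96 h). OE CPM was 1045 and 1221 (6 h), 1284 and 1542 (12 h), 801 and 1033 (24 h), 1102 and 1321 (48 h), then 509 and 529 (96 h). The WT peak was higher and the WT levels at 6, 48 and 96 h lower than in OE (adjusted p 0.049 by edgeR). That call was lost without any of 16 libraries, all but WT 12 h replicate 2, OE 24 h replicate 2 and WT 96 h replicates 1 and 2 (adjusted p 0.0538 to 0.12). Potri.014G103000.v3.0 was the last of the 5. It is a member through its OE libraries, so its call is no independent evidence. That call was lost without any of 17 libraries. The exceptions were OE 6 h replicate 2, WT 12 h replicate 2 and OE 48 h replicate 2. The count of 5 was 2 when OE 96 h replicate 1 was left out, and 3 for each of WT 6 h replicates 1 and 2, WT 12 h replicate 1, OE 12 h replicates 1 and 2, WT 24 h replicates 1 and 2, OE 24 h replicate 1, WT 48 h replicates 1 and 2, OE 48 h replicate 1, WT 96 h replicate 2 and OE 96 h replicate 2.

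The positions of the members are described here. Chromosome 10 held 14 of the 100, against 6.88% of the genes tested, and chromosome 1 held 10, against 11.6%. Strands were mixed, with 58 members on the plus and 42 on the minus strand, and no member had a newGene name, which 261 of all models carry. Of the 14 on chromosome 10, 7 lay within 100000 bases of another member, some of them through overlapping loci. No such count is given for all genes. Potri.010G150500.v3.0, Potri.010G150700.v3.0 and Potri.010G150800.v3.0 lie on the same strand, the locus of the first (chromosome 10, 15918247 to 15959537) enclosing those of the other two. The models overlapping each of the 3 held 211%, 65.3% and 230% as many counts as the member, in that order. Their counts may therefore not be separate. WT CPM of the first was 1360.0 and 1294 (6 h), 2036 and 1624 (12 h), 2126 and 1511 (24 h), 1097 and 1133 (48 h), then 698 and 765 (96 h). WT CPM of the second was 1268 and 1194 (6 h), 2065 and 1909 (12 h), 2109 and 1967 (24 h), 2711 and 2618 (48 h), then 2571 and 2660.4 (96 h). WT CPM of the third was 363 and 304 (6 h), 631 and 464 (12 h), 656 and 541 (24 h), 877 and 879 (48 h), then 587 and 769.9 (96 h). The first was highest at 12 and 24 h and lowest at 96 h, and both enclosed models were highest at 48 h. From 6 to 96 h in WT the enclosing model fell 1.81-fold (-0.86, SE 0.214, adjusted p 0.00244 by edgeR), while the enclosed models rose 2.12-fold and 2.04-fold (adjusted p 1.44e-05 and 0.000531).

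Another pair on chromosome 10, Potri.010G142600.v3.0 and Potri.010G142800.v3.0, lay on the same strand with 29125 bases between them. The first held 1567 and 1389.8 (6 h), 3029.7 and 2970.1 (12 h), 3565 and 3391 (24 h), 2986 and 3161 (48 h), then 5294 and 5249.8 (96 h) in WT, in CPM, and was highest at 96 h. The second held 426 and 355 (6 h), 1644 and 1999 (12 h), 2443 and 2519 (24 h), 1941 and 1441 (48 h), then 1181 and 1641 (96 h) in WT, in CPM, and was highest at 24 h. Other neighbours within 100000 bases were 1 pair each on chromosomes 14, 16 and 17. In all, 14 members overlapped another gene model, 11 of them one on the opposite strand. For 9 the overlapping models together held at least 10% as many counts as the member. These counts are not given for all genes.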

How the data were processed

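Basal stem segments of 2 genotypes at 5 times were sequenced as 125-bp paired-end reads. The authors deposited, per the file headers, a count, an FPKM and a normalized signal for each of 39538 gene models in each of 20 libraries. Per the submitters' processing notes the tools include TopHat2 2.1.1 and also HTSeq 0.6.0, with no role stated. What build, annotation and strand setting were used is not given in the sources used here. The deposited signal was only compared with the count divided by a library factor, and matched it (within 0.05 plus a relative 0.001) for 99 to 100% of members but 68.1 to 76.3% of all genes counted.

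Members were ranked on unscaled CPM computed from the deposited counts. Counts were fitted with edgeR 4.0.16 in R 4.3.3 (TMM scaling, filterByExpr, quasi-likelihood with a mean for each of 10 groups over all 20 libraries, 10 residual degrees of freedom), with Benjamini-Hochberg adjustment over the 26391 genes that passed the filter. The fit was also run on simulated data in which genes without an added change had the same mean in all groups. The outcome of that run is not given here. DESeq2 1.42.0, other scalings, no filter, other member rules, an additive model, single-time fits and leaving out each library in turn were the alternatives. Levels between genes were compared on the deposited FPKM. With 2 replicates a group, p-values rest on the spread pooled over all groups.

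The members and lists were chosen with earlier results of these data known, and the permutation test planned for the members' share is therefore not given. The rule for named genes took the members called between genotypes, the 5 largest changes in each direction between times, the 20 highest members, the 5 widest and the 5 narrowest ranges, the 5 genes on each side of rank 100 and members with a member as neighbour. Because no names are given, fewer of these are printed, at most 2 rising and 2 falling in a comparison between times. Potri.004G106800.v3.0 was named after its values were seen. Planned lists of marker genes and product classes could not be formed because the files give no names. The level of PuHox52 is likewise not reported, for want of an ID.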

Additional observations from a re-analysis of the deposited data

Results flagged for a closer look

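For 5 members the difference between OE and WT changed over the times by a test of that change itself (edgeR's quasi-likelihood test with 4 degrees of freedom and Benjamini-Hochberg adjustment over all genes tested). Potri.014G145100.v3.0 had an adjusted p of 0.0061 and was lower in OE at 6 h. Potri.006G126800.v3.0 had an adjusted p of 0.0147 and was higher in OE at 96 h, after lying below WT at 6, 24 and 48 h. Its call was lost when WT 96 h replicate 2 or OE 96 h replicate 1 was left out (adjusted p 0.0618 to 0.0891). Potri.017G114600.v3.0, whose locus overlaps 32 other models, had an adjusted p of 0.0161 and was higher in OE at 6 and 48 h but lower at the other times. Potri.014G103000.v3.0 had an adjusted p of 0.0479 and was higher in OE at every time, by least at 48 h. It is a member through its OE libraries, so this p is no independent evidence, and the call was lost without any of 17 libraries, all but OE 6 h replicate 2, WT 12 h replicate 2 and OE 48 h replicate 2 (adjusted p 0.0523 to 0.126). Potri.016G015500.v3.0 had an adjusted p of 0.049 and was lower in OE at 12 and 24 h but higher at the other times, and its call was lost without any of 16 libraries, all but WT 12 h replicate 2, OE 24 h replicate 2 and WT 96 h replicates 1 and 2 (adjusted p 0.0538 to 0.12). The causes were not tested.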

How the results depend on the processing

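No result reversed its direction under the alternatives run. The counts of members called between times moved by less than 1.5 times under DESeq2, other scalings, no filter and other member rules, while those between genotypes moved. DESeq2 called 14 members on average over the times, 10 at 6 h, 5 at 12 h, 8 at 24 h, 2 at 48 h, 10 at 96 h and 14 for the change over the times, against 7, 2, 1, 3, 0, 4 and 5 by edgeR. The additive model called 4 on average. Without the filter 5 were called at 24 h, 1 at 48 h, 9 at 96 h and 9 for the change. The 4 libraries of a time alone gave 0 at 12 h, 1 at 24 h and 9 at 96 h. Members chosen on the times not compared, an alternative added after the data were seen, gave counts within 1.5 times in all 15 comparisons of 2 groups. Members chosen on FPKM gave 1 at 6 h, 0 at 12 h and 2 at 96 h, and members chosen on the median CPM 1 at 6 h and 0 at 12 h. The cause of these shifts was not tested, and the shares of all genes called under the alternatives are not given.

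With each library left out in turn, the counts ran from 5 to 9 on average, 1 to 4 at 6 h, 1 to 4 at 12 h, 1 to 4 at 24 h, 0 to 0 at 48 h, 1 to 5 at 96 h and 2 to 7 for the change. In WT they ran from 38 to 56 at 12 h, 67 to 75 at 24 h, 73 to 81 at 48 h and 76 to 85 at 96 h against 6 h, and from 45 to 64 at 96 against 24 h. In OE they ran from 42 to 58, 60 to 70, 68 to 81 and 79 to 87, and from 36 to 62 at 96 against 24 h. A group left with 1 library was assumed to vary like the others. The difference in share ran from -0.391 to -0.225 percentage points. Other scalings moved the median log2 fold change of all genes by at most 0.0739.

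No paired analysis was possible because the labels give no replicate numbers, and those used here only name the libraries of a group in accession order. The lowest member count was 204, and each group had 2 pools of cuttings.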
